A study of Homo sapiens with 3 samples.

Results

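The 38 genes described here make, activate, export or store cholesterol and fatty acids, or control those steps, and were taken from a fixed list of names. All 38 were found among the 19974 protein-coding genes on chromosomes 1 to 22 and X. They were placed in 4 groups by role: 3 regulators, which are the genes of the sterol regulatory element-binding proteins (SREBPs) and of their escort SCAP, 15 enzymes of the sterol pathway, 15 genes of fatty acid synthesis and activation, and 5 genes of lipid uptake, efflux, storage and transport. The chromatin came from HCC1599 cells, a long-established line from a breast cancer of the triple-negative kind, for which the labels name no treatment, and the series describes its cells as positive for a MARCO transcript it calls MARCO-TST. H3K27ac, an acetylated histone mark of active promoters and enhancers, and H3K4me3, a trimethylated mark of promoters, were each profiled by chromatin immunoprecipitation and sequencing in 1 library, beside an input library made without antibody. With 1 library per mark no value has a replicate check, so that every comparison is a description without a test, and read depth and local copy number are unknown here.

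The authors' lists held 72894 H3K27ac and 32043 H3K4me3 peaks on these chromosomes. Each peak carries the authors' score, which starts at 30, has no stated unit, and piles up at 3100 in 3.50% of H3K27ac and 33.4% of H3K4me3 peaks, so that it no longer ranks the strongest peaks. A gene was counted as marked if a peak touched, by 1 bp or more, the window reaching 1 kb to each side of any start in the RefSeq promoter table. For FASN, SQLE, FDFT1, SCARB1 and ABCG1, windows around both ends of the gene span were used. Of 4 epithelial genes, EPCAM, KRT18 and CDH1 had both marks there, and KRT8 had H3K27ac only, with 3 H3K4me3 peaks in its span. None of 6 genes of leukocytes, fibroblasts and endothelium (PTPRC, CD3E, COL1A2, DCN, PECAM1 and CDH5) had either mark at its start.

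Cells make cholesterol from acetyl-CoA through mevalonate, squalene and lanosterol, and make fatty acids from the same acetyl-CoA by carboxylation, chain building, elongation and desaturation. SREBPs are transcription factors held in the endoplasmic reticulum, and when sterols are low SCAP escorts them to the Golgi, where they are cut free to enter the nucleus and bind sterol response elements. SREBF2 acts mainly on cholesterol genes and SREBF1 mainly on fatty acid genes, with NF-Y, which binds CCAAT boxes, and Sp1, which binds GC boxes, as usual partners. Lipogenic enzymes such as fatty acid synthase are abundant in many carcinomas.

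The promoter sequences below are the 250 bases before a listed start, on the gene's own strand and written 5' to 3', from RefSeq (GRCh38.p14). The table matched 33 of the 38 members. SREBF2 is shown at chr22:41832855-41833104 (+ strand) because its window holds a full sterol response element, and HMGCS1 at chr5:43313413-43313662 (- strand), MSMO1 at chr4:165327419-165327668 (+ strand) and SCD at chr10:100346983-100347232 (+ strand) because they had some of the widest H3K4me3 start peaks. ACSL1 is shown at chr4:184805554-184805803 (- strand), the fifth of its listed starts, because the gene's widest start peak of each mark lay there. SC5D at chr11:121292521-121292770 (+ strand), ELOVL5 at chr6:53348951-53349200 (- strand) and ABCA1 at chr9:104928156-104928405 (- strand) are shown as members with weak or no H3K27ac at the start. Capitals mark the full sterol response element in SREBF2 (the capitals nearer its 5' end), TCACNCCAC in ACSL1, the E-box CACGTG, and CCAAT, each on either strand.
SREBF2: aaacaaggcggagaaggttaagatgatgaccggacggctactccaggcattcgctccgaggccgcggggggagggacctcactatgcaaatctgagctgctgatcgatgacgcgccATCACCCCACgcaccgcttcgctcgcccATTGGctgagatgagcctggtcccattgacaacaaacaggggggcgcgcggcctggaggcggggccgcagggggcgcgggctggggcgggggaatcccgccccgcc
HMGCS1: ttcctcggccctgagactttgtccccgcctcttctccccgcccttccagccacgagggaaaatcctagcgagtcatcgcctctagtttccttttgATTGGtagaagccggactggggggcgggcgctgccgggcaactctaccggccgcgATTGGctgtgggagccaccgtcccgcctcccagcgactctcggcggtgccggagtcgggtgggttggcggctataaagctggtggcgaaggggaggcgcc
MSMO1: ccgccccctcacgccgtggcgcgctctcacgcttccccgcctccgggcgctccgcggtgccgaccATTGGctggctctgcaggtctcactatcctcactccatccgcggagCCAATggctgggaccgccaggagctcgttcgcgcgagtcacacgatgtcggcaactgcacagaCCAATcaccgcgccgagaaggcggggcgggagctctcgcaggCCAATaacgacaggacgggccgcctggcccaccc
SC5D: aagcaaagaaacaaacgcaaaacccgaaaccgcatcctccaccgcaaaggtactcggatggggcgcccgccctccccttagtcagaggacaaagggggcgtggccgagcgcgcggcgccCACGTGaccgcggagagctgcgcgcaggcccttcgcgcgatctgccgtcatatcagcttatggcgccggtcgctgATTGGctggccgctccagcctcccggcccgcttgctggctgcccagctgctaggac
SCD: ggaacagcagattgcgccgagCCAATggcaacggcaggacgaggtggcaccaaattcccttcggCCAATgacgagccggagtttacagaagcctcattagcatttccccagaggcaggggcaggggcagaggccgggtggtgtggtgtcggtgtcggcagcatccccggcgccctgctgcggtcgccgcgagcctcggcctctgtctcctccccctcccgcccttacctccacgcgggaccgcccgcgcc
ACSL1: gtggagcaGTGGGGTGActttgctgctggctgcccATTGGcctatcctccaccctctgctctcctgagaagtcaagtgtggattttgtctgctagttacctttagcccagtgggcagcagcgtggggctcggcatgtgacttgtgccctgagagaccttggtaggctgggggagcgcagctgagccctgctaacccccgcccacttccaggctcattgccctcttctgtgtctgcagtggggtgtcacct
ELOVL5: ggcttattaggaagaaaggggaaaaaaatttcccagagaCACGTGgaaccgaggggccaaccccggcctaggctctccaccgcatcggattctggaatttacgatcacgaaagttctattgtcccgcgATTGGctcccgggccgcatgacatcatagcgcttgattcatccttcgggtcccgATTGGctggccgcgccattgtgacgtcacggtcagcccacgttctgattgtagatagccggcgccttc
ABCA1: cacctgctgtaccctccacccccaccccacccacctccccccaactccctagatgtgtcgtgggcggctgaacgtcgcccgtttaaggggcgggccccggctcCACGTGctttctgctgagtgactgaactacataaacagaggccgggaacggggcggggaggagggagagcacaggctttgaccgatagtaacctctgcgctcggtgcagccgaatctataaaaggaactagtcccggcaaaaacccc

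The full sterol response element lay at -134 to -125 bases from the SREBF2 start, with a CCAAT box on the other strand at -106 to -102. In all 22132 promoter windows of 300 bases (250 before and 50 after a start, 15812 protein-coding genes, both strands searched), it was found in 10, or 0.0452%, and SREBF2 was the 1 member that held it. The looser TCACNCCAC, which also matches the full element, was found in 2 of the 49 member windows (4.08%), SREBF2 and ACSL1, against 1.13% of all windows. In ACSL1 it lay at -242 to -234 bases from the fifth start. No member window held the exact direct repeat of AGGTCA with 4 bases between, against 2 of all windows (0.00904%). That repeat is the perfect form of DR4, an element that liver X receptors bind, and imperfect forms were not searched. A missing match says only that these letters are not in the window.

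CCAAT and the GC box GGGCGG were the letters most members shared. CCAAT was in the windows of 24 of 33 genes (72.7%), against 42.1% of all genes in the table, and by window in 57.1% of member windows, against 34.6%. Sterol pathway windows held it in 13 of 18 cases (72.2%) and fatty acid windows in 12 of 25 (48%). By gene the shares lay closer, at 11 of 13 sterol pathway genes (84.6%) and 10 of 14 fatty acid genes (71.4%). In both groups some genes have more than 1 listed start, so that windows outnumber genes. MSMO1, the C4-methyl sterol oxidase, has 4 in the sequence above, and HMGCS1 and SCD have 2 each. GGGCGG was in windows of 32 of 33 genes (97%), against 64.2% of all genes. Member windows were richer in G and C, with a median of 68% (range 45.3 to 82.3%), against 62.3% in all windows, and the part of this in the GC box share was not tested. Among windows with an H3K4me3 peak the shares of GGGCGG were 86.7% in members and 72.1% in all, and those of CCAAT 62.2% and 34.2%. The E-box was in windows of 5 members (SCAP, LSS, SC5D, ELOVL5 and ABCA1), or 15.2% of genes, against 10.9% of all.

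**Figure D1:**
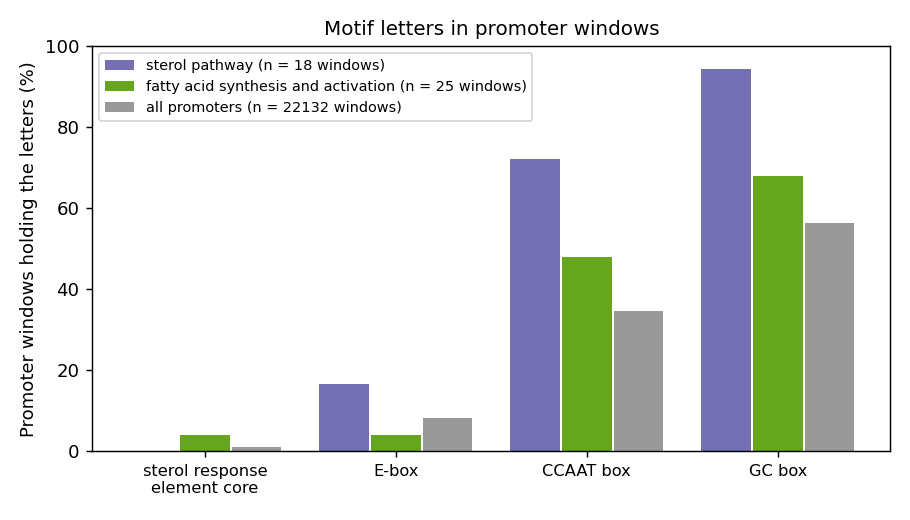
Share of 300-base promoter windows (vertical axis, percent) that hold each set of letters on either strand, for sterol pathway genes, fatty acid genes and all promoters of protein-coding genes. The CCAAT box was in 72.2% of sterol pathway windows, 48% of fatty acid windows and 34.6% of all windows. That gap between the gene groups was wider than the one counted by gene, at 84.6 and 71.4%. The letters TCACNCCAC, searched as the core sterol response element, were in none of the 18 sterol pathway windows. These windows came from 13 of the 15 genes, and other forms of the element were not searched.

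Most of these genes carried both marks at their starts. The count was 32 of 38 members (84.2%), against 57.7% of all protein-coding genes. In each of the 32 an H3K27ac peak overlapped an H3K4me3 peak at the start, as in 99.4% of all genes with both marks. No member had H3K27ac alone, against 2.27% of all genes. ACACB, ELOVL5, FADS3 and ACSL4 had H3K4me3 only, against 12.3% of all genes, and FDFT1 and ABCG1 had neither mark at either end of the span, against 27.8% of all genes. Taking each mark alone, 32 members had H3K27ac at the start, against 60% of all genes, and 36 had H3K4me3, against 70%. Among the 15812 genes in the promoter table the shares were 60% with both marks, 1.88% with H3K27ac only, 12.1% with H3K4me3 only and 26% with neither. By group, both marks were found at 3 of 3 regulators, 14 of 15 sterol pathway genes, 11 of 15 fatty acid genes and 4 of 5 uptake and efflux genes. The 4 genes with H3K4me3 alone were thus all in the fatty acid group, a difference between groups that was not tested. With gene ends in place of listed starts, PMVK, LPIN1 and ACACB would have had neither mark.

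Start peaks were somewhat wider in members than in genes at large. The widest H3K27ac start peak had a median width of 2876 bp over 32 members (quartiles 2014 and 5065), against 2008 bp over the 11979 genes with one. For H3K4me3 the median was 4369 bp over 36 members (quartiles 3577 and 5173), against 3393 bp over 13972 genes. H3K27ac scores reached 3100 or more at 8 members of 32, against 13.2% of genes with an H3K27ac start peak. H3K4me3 scores reached 3100 at 33 members of 36, against 76.6% of genes with an H3K4me3 start peak, and the 3 below were HSD17B7, ACACB and ACSL4. For H3K27ac the group medians ran from 1994 bp in the sterol pathway through 2432 bp in uptake and efflux and 3913 bp in fatty acid genes to 7339 bp in regulators. For H3K4me3 they lay closer together, at 4332, 3740, 4598 and 4452 bp in the same order of groups.

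**Figure D2:**
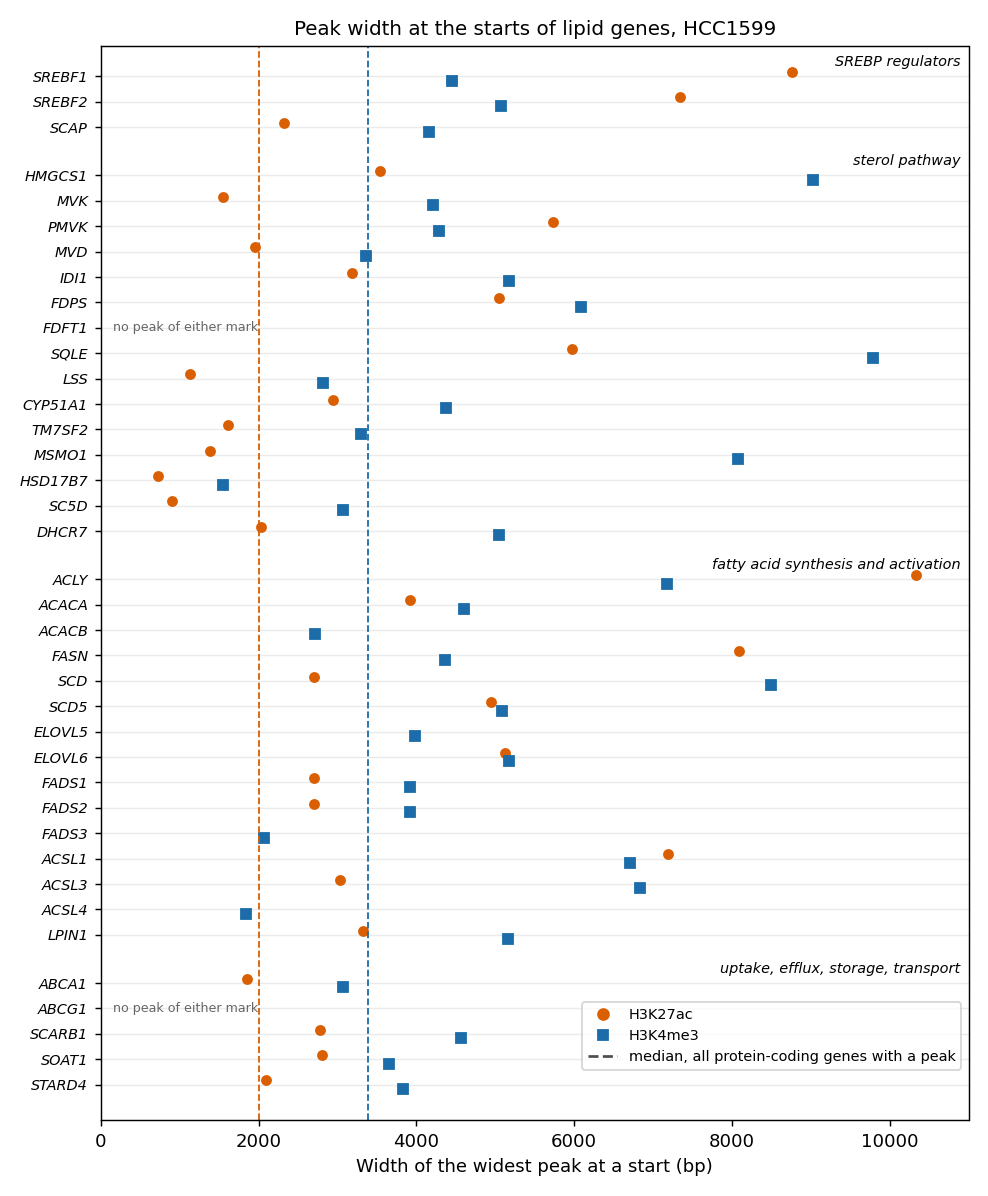
Width in bp of the widest H3K27ac peak (circles) and H3K4me3 peak (squares) at the starts of the 38 members, by group, with dashed lines at the medians of 2008 bp (H3K27ac) and 3393 bp (H3K4me3) over all protein-coding genes with a peak. H3K27ac exceeded H3K4me3 in width at SREBF1, SREBF2, PMVK, ACLY, FASN and ACSL1.

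Of the regulators, SREBF1 and SREBF2 had some of the widest H3K27ac start peaks among members, and SCAP did not. SREBF1 had an H3K27ac peak of 8758 bp (chr17:17834228-17842985) over its start on the minus strand, reaching 5999 bp upstream, and an H3K4me3 peak of 4452 bp, both with a score of 3100. SREBF2 had 7339 bp of H3K27ac (chr22:41829452-41836790) and 5069 bp of H3K4me3, also at 3100, and the acetylation covered the whole H3K4me3 peak, sterol response element included. In both genes the H3K27ac peak was the wider of the pair, as in 6 of the 32 doubly marked members (18.8%) and 11.6% of doubly marked genes. SCAP had 2324 bp of H3K27ac with a score of 714, inside 4157 bp of H3K4me3 at 3100. Inside SREBF1 a second pair of peaks lay about 16 kb into the gene, with 5332 bp of H3K27ac (score 1324) centred at 16.1 kb and 4709 bp of H3K4me3 (score 3100) at 15.7 kb. The H3K27ac peak next to it, of 5155 bp and score 2538, was centred at 10.6 kb. SREBF2 held 4484 bp of H3K27ac centred at 13.9 kb, with weak H3K4me3 on it (scores of 71.7 or less).

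The sterol pathway begins with HMGCS1, the cytosolic HMG-CoA synthase, whose start had 3543 bp of H3K27ac (score 1210) and 9023 bp of H3K4me3, percentile 98.3 of H3K4me3 start widths. That H3K4me3 peak ran 7870 bp into the gene and 1152 bp upstream, and 3 H3K27ac peaks lay on it. The mevalonate steps followed. Mevalonate kinase MVK had 1549 bp of H3K27ac (score 355) and 4206 bp of H3K4me3, which it shared with the start of MMAB, so that the peaks cannot be given to either gene. Phosphomevalonate kinase PMVK had 5737 bp of H3K27ac, wider than its 4289 bp of H3K4me3, both at 3100. The decarboxylase MVD had 1955 bp of H3K27ac with a score of 120, the lowest of the 32, under 3358 bp of H3K4me3 at 3100. The isomerase IDI1 was marked at all 3 listed starts: its first start shared peaks with WDR37, while the other two lay about 7.6 to 7.8 kb further on under 3182 bp of H3K27ac and 4775 bp of H3K4me3, both at 3100, with no start of another protein-coding gene in them.

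FDPS, the farnesyl diphosphate synthase, had 5045 bp of H3K27ac and 6085 bp of H3K4me3, both at 3100. Squalene epoxidase SQLE, a rate-limiting enzyme of the pathway, had the widest H3K4me3 peak of all members, 9784 bp (chr8:124996049-125005832, percentile 98.7), and 5973 bp of H3K27ac, but the H3K27ac score was only 440. FDFT1, the squalene synthase, had no peak within 1 kb of either span end. Inside the span it held an H3K4me3 peak of 8497 bp (chr8:11800555-11809051, score 3100), beginning about 5 kb from the lower end, and an H3K27ac peak of 3552 bp (chr8:11800610-11804161, score 1452) at its lower edge. Its count as a gene with neither mark therefore describes the span ends and not the gene.

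From lanosterol onwards, the widest H3K27ac start peak of each gene had a score of 138 to 1330. CYP51A1, the lanosterol demethylase, had 2949 bp of H3K27ac (score 1330) and 4374 bp of H3K4me3. LSS, the lanosterol synthase, had 1127 bp of H3K27ac (score 647) just upstream and 799 bp (score 103) just inside the gene, over 2 H3K4me3 peaks at 3100 that were split by a gap near the start. MSMO1 had 1382 bp of H3K27ac (score 237) and 4 H3K27ac peaks in all on an H3K4me3 peak of 8080 bp (percentile 97.1), of which they covered 40.8%. TM7SF2, a sterol reductase, had 1609 bp of H3K27ac (score 240) and 3300 bp of H3K4me3. SC5D, the sterol desaturase, had 905 bp (score 138) and 3075 bp. DHCR7, which makes cholesterol from 7-dehydrocholesterol, had 2033 bp (score 791) and 5043 bp. HSD17B7, a sterol ketoreductase, was the gene of the 32 whose widest start peaks were the narrowest, with 721 bp of H3K27ac (score 293) upstream of its start and 3 separate H3K4me3 peaks of 1006, 653 and 1551 bp with scores of 607, 1316 and 356, none of which covered the start base.

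Fatty acid synthesis opens with ACLY, the ATP citrate lyase, which had the widest H3K27ac start peak of all members. It spanned 10335 bp (chr17:41911413-41921747, score 1864, percentile 98.3) and covered the whole of an H3K4me3 peak of 7172 bp. ACACA, the acetyl-CoA carboxylase of the cytosol, was marked at all 3 listed starts, which lie over 107 kb. The first had 3549 bp of H3K27ac (score 2085) and 4406 bp of H3K4me3, shared with TADA2A. The second, 47.7 kb on, had 3913 bp (score 226) and 4598 bp (score 3100), and the third, at 107 kb, had 1407 bp (score 168) and 1074 bp (score 106). FASN, the fatty acid synthase, had 8084 bp of H3K27ac (chr17:82094620-82102703, score 3100) at the upper end of its span, over H3K4me3 peaks of 4364 and 3018 bp at 3100 that were separated by a gap near that end. SCD, the main stearoyl-CoA desaturase, had 2699 bp of H3K27ac (score 1315) and 8497 bp of H3K4me3 (percentile 97.7), of which H3K27ac covered 46.2%.

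The elongase ELOVL6 had nearly matched peaks of 5123 bp of H3K27ac (score 2605) and 5177 bp of H3K4me3, and SCD5, a desaturase, had 4952 bp (score 2231) and 5090 bp. The desaturase genes FADS1 and FADS2 start next to each other on opposite strands and shared 1 H3K27ac peak of 2705 bp (score 663) and 1 H3K4me3 peak of 3919 bp (score 3100), so that they are not separate observations. Among the acyl-CoA synthetases, which activate fatty acids, ACSL1 had 7194 bp of H3K27ac (score 3208) and 6710 bp of H3K4me3, and ACSL3 had 3030 bp (score 1351) and 6830 bp. LPIN1, the phosphatidate phosphatase lipin 1, had 3320 bp of H3K27ac (score 520) ending just upstream of the third of its listed starts, 1098 bp (score 1161) over that start, and 5167 bp of H3K4me3 (score 3100) across it.

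At 4 fatty acid genes no H3K27ac peak was called within 1 kb of a listed start. ELOVL5, the elongase of polyunsaturated fatty acids, had 3985 bp of H3K4me3 (chr6:53346155-53350139, score 3100) with no H3K27ac peak on it, while H3K27ac peaks of 5407 bp (score 1613) and 1915 bp (score 606) were centred 22.6 kb inside the gene and at -10.3 kb upstream. FADS3 had 2063 bp of H3K4me3 (score 3100), and its nearest H3K27ac peak was centred 27 kb away. ACSL4, on the X chromosome, had 1842 bp of H3K4me3 (score 1550) and no H3K27ac peak in its span of 91923 bp. ACACB, the mitochondrial acetyl-CoA carboxylase, had 2712 bp of H3K4me3 (score 2780) at the second of its 2 listed starts, no peak at the first, and 2 H3K27ac peaks in its span, with scores of 34.9 and 32.6. These 4 calls were the same with windows of 500 bp and 2.5 kb. Across all genes with an H3K4me3 peak over a listed start, 16.3% had no H3K27ac on that peak, against 4 of the 32 members with such a peak (12.5%).

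Among the 4 doubly marked genes of uptake and efflux, no start peak of H3K27ac was wider than its H3K4me3 peak. It was wider in 11.6% of all doubly marked genes and in 7.14% of those in the sterol pathway, so that this count does not set the group apart. ABCA1, the exporter of cholesterol to apolipoprotein A-I, had 1851 bp of H3K27ac (score 206) and 3072 bp of H3K4me3. SOAT1, which esterifies cholesterol for storage, had 2803 bp (score 450) and 3650 bp, and STARD4, a sterol transfer protein, had 2089 bp (score 470) and 3830 bp. SCARB1, the receptor for high-density lipoprotein, had 2775 bp of H3K27ac and 4571 bp of H3K4me3, both at 3100, at the upper end of its span. ABCG1, a second cholesterol exporter, had no peak at either end, and inside its span an H3K4me3 peak of 2660 bp (chr21:42218424-42221083, score 3100) carried 2 H3K27ac peaks of 512 and 692 bp with scores of 40.1 and 52.3. Like FDFT1, ABCG1 has no listed start here, so that its count as a gene with neither mark describes the span ends and not the gene.

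**Figure D3:**
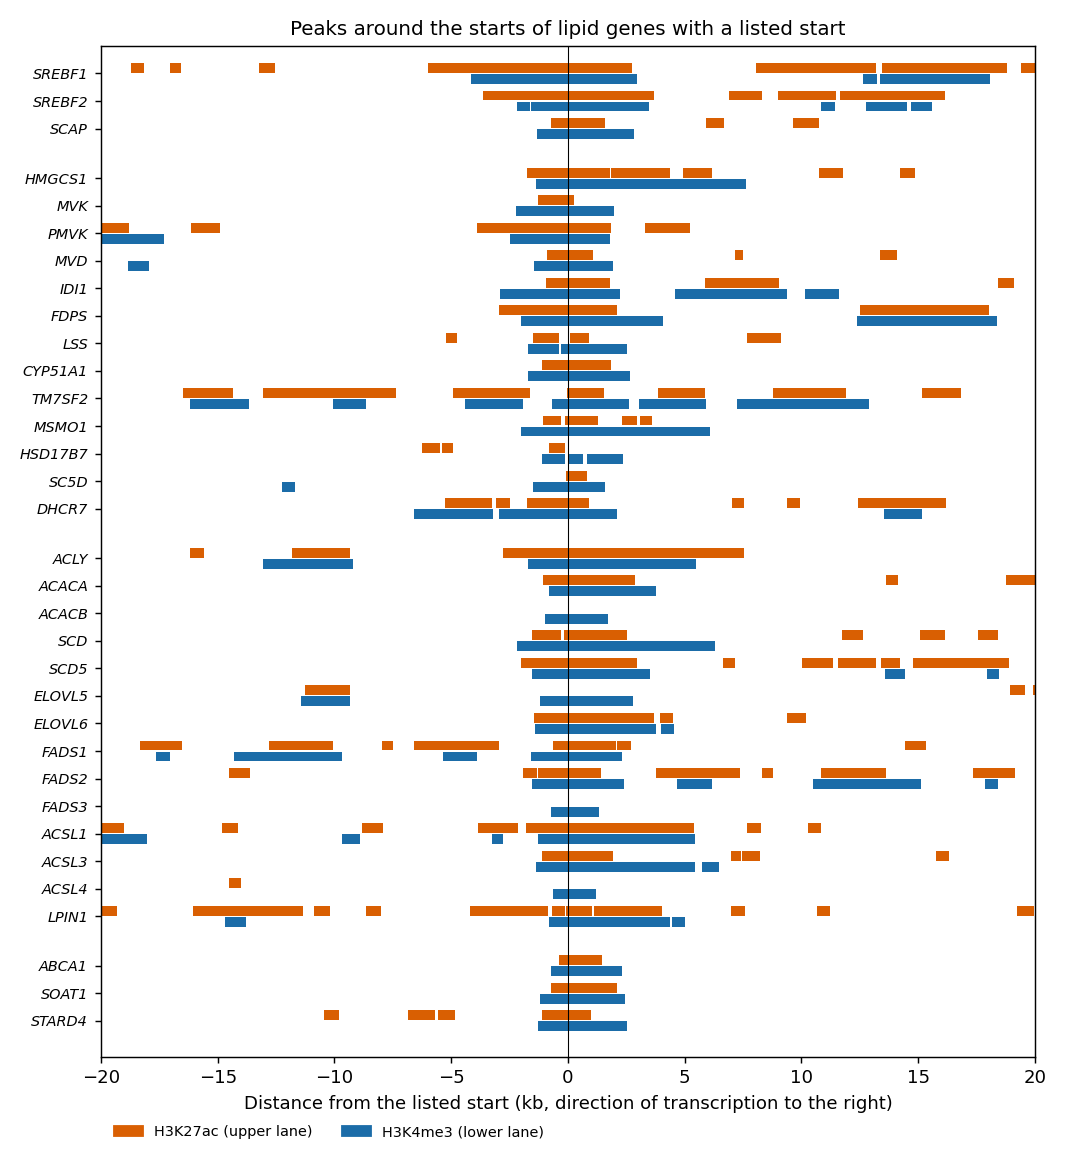
H3K27ac peaks (upper lane) and H3K4me3 peaks (lower lane) within 20 kb of the listed start with the widest H3K4me3 peak, for the 33 members in the promoter table, with distance in kb along the direction of transcription. H3K4me3 reached further into the gene than upstream at 28 of 32 members, and ACACB, ELOVL5, FADS3 and ACSL4 had no H3K27ac bar within 1 kb of the start.

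H3K4me3 reached further downstream than upstream in 28 of the 32 members with a peak over a listed start (87.5%), against 77.1% of 10968 genes. These were 3 of 3 regulators, 8 of 12 sterol pathway genes, 14 of 14 fatty acid genes and 3 of 3 uptake and efflux genes. The exceptions were MVK, PMVK, IDI1 and DHCR7. The MVK peak also covered a start of MMAB, and the IDI1 peak a start of WDR37. From the first DHCR7 start the same peak reached 2751 bp downstream and 2291 bp upstream. FADS1 and FADS2 share 1 peak among the 14. Its median reach was 2639 bp downstream and 1429 bp upstream in members, against 2093 and 1220 bp in all genes. HMGCS1, MSMO1, ACLY, SCD, ACSL1 and ACSL3 exceeded 5 kb downstream, a limit chosen after the values were seen; these were 6 of 32 (18.8%), against 4.38% of all genes. SQLE and FDFT1, also with wide H3K4me3, are not in this count because they had no listed start here. H3K27ac covered a median of 60.9% of the H3K4me3 peak in members, against 55.3% in all genes.

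In 5 genes the listed starts lay more than 1 kb apart and could be told apart. ACSL1 had 5, and the marks were unequal among them. Its first start had 3612 bp of H3K4me3 at 3100 with 1442 bp of H3K27ac (score 145), the third had no peak of either mark, the second and the fourth had H3K4me3 scores of 45.2 and 32.4, and the fifth, 20.4 kb from the first, had the 7194 and 6710 bp peaks given above. LPIN1 had no peak at its first 2 starts and both marks at the third, 69.1 kb from the first. Between those starts lay an H3K27ac peak of 9145 bp (chr2:11707871-11717015, score 3100), with a single H3K4me3 peak of 774 bp and score 83.5 on it, and another of 4678 bp (score 3100). ACACA and IDI1 were marked at every listed start and ACACB at 1 of 2.

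**Figure D4:**
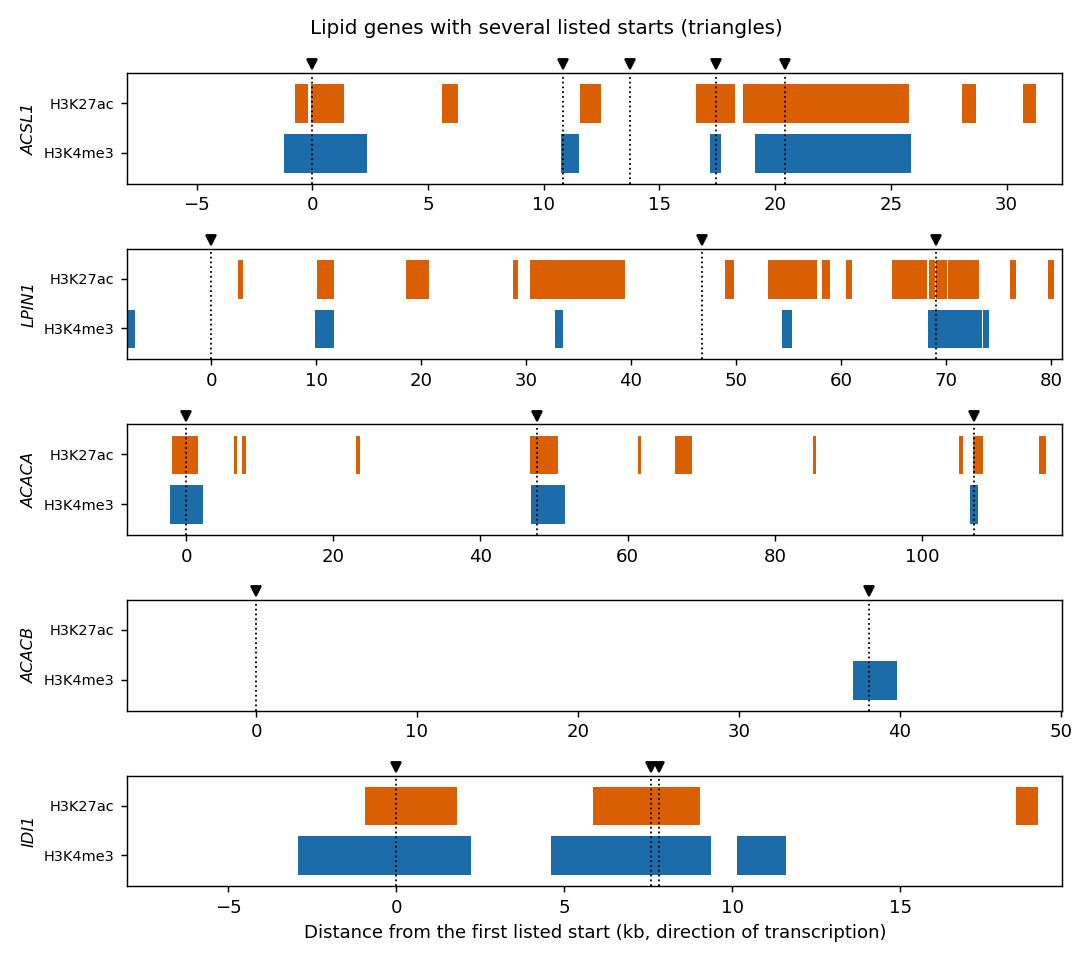
H3K27ac and H3K4me3 peaks (bars) and listed starts (triangles and dotted lines) in the 5 members whose starts lie more than 1 kb apart, in kb from the first listed start. The widest H3K4me3 peak of ACSL1 lay at the fifth start and that of LPIN1 at the third, and ACACB had H3K4me3 without H3K27ac at the second.

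The regions of these genes held a higher median number of H3K27ac peaks away from gene ends than those of genes at large, but they were also longer, with a median span of 33136 bp over members against 24171 bp over all genes. An H3K27ac peak is termed distal where no gene end, of whatever gene type, lay within 2.5 kb of it, and such peaks were counted in the gene span and 50 kb around it. The median was 4 over the 38 members (quartiles 2 and 7.75), against 2 over all genes (quartiles 1 and 5), and 36 members had at least 1, against 79.6% of all genes. FDPS and HSD17B7 had none. The group medians were 8 in regulators, 2 in the sterol pathway, 6 in fatty acid genes and 2 in uptake and efflux. Fatty acid genes are longer, with a median span of 81547 bp against 21757 bp in the sterol pathway, so that more sequence was searched. Per 100 kb of that region, H3K27ac of any kind covered a median of 17638 bp in regulators, 8115 bp in the sterol pathway, 10349 bp in fatty acid genes and 3988 bp in uptake and efflux, against 5179 bp over all genes. Distal H3K27ac alone covered a median of 10043 bp per 100 kb in regulators, 1899 bp in the sterol pathway, 3510 bp in fatty acid genes and 1542 bp in uptake and efflux, or 3357 bp over all members, against 1410 bp over all genes.

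Most distal peaks had low scores, in these regions and over the genome. Of 198 different distal H3K27ac peaks, 137 (69.2%) scored under 100, against 70.3% of all distal H3K27ac peaks. With that minimum the group medians of distal peaks were 2 in regulators, 1 in the sterol pathway, 2 in fatty acid genes and 1 in uptake and efflux, and that over all members was 2, against 0 over all genes. H3K4me3 lay on 43 of the 198 (21.7%), against 18.4% of all distal H3K27ac peaks. Over H3K27ac peaks of every kind in these regions the share on H3K4me3 was 43.6% of 358, against 34.8% of the whole list, and 80.2% of 162 H3K4me3 peaks lay on H3K27ac, against 71% of the whole list. The regions of FADS1, FADS2 and FADS3 overlap, so that they count some of the same peaks. Because starts inside a gene span do not count as gene ends, the distal peaks of IDI1, ACLY, ACACA and ACSL1 included start peaks. Without peaks within 2.5 kb of a listed start of any gene, ACACA had 10 in place of 13 and ACSL1 6 in place of 8. ACLY then had 5 in place of 6, and IDI1 and PMVK each had 2 in place of 3.

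SCD5 and LPIN1 had the most distal H3K27ac peaks, 17 each, and ACACA and FDFT1 had 13 each. Those scoring at least 100 numbered 3, 5, 3 and 4 in that order. The spans of these genes were 169258, 149866, 321845 and 43717 bp, against a median of 33136 bp over members, so that more sequence was searched. In SCD5, 16 of the 17 lay in the gene, the widest of 9108 bp (chr4:82740511-82749618, score 3100), centred 53.7 kb from the start with a weaker H3K4me3 peak of 2445 bp (score 225) on it. In LPIN1, 13 of the 17 lay in the gene. SREBF2 and SCARB1 had 12 each. The SCARB1 peaks included 6577 bp (chr12:124844389-124850965, score 1985), centred at -16.2 kb from the marked end, inside the gene, and 7 of its 12 scored at least 100, the most of any member. SREBF1, SCAP, ELOVL5 and ACSL1 had 8 each, with an ACSL1 peak of 5264 bp (score 3100) in the flank beyond the far end of the gene. FDFT1 had 9 of its 13 in the flanks, the widest of 5531 bp (score 1119) with no H3K4me3 on it. The 4 in its span all lay on the H3K4me3 peak of 8497 bp described above. FDFT1 has no listed start here, so that peaks near a start could not be set aside. ABCG1 had 7, the widest of 2915 bp (score 912), DHCR7 6 and HMGCS1 5.

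**Figure D5:**
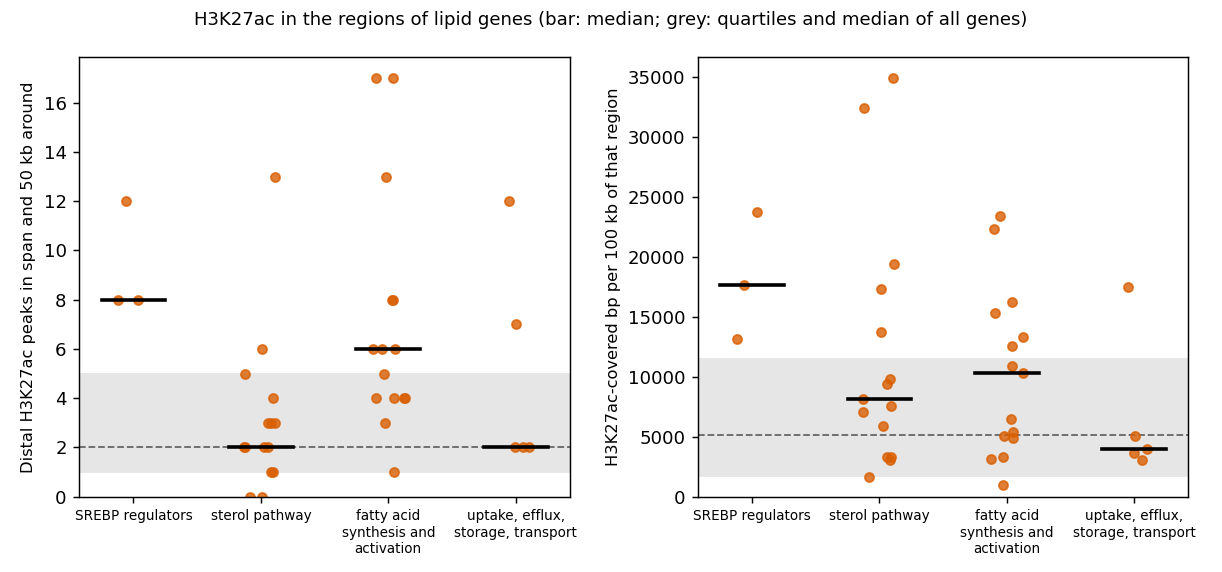
Distal H3K27ac peaks in the gene span and 50 kb around it (left, number) and bp covered by H3K27ac peaks per 100 kb of that region (right), with 1 point per member, black bars at group medians, and grey bands and dashed lines at the quartiles and median of all protein-coding genes. Group medians of the number were 8, 2, 6 and 2 from left to right, against 2 for all genes.

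The 24 other genes of lipid metabolism gave a like count, with 21 (87.5%) having both marks at the start. LBR, a sterol reductase of the nuclear envelope, had 6079 bp of H3K27ac and 7775 bp of H3K4me3, both at 3100. DGAT2, which makes triglyceride, was read at both span ends. Its widest H3K27ac peak (7542 bp) lay at the upper end and its widest H3K4me3 peak (3958 bp) at the lower end. Narrower peaks at either end were not looked at, so that whether the marks met at 1 end is not known here. NSDHL and EBP, enzymes of the later sterol steps on the X chromosome, had weak acetylation, with H3K27ac scores of 64.3 and 48.1. INSIG2, which holds the SCAP complex in the endoplasmic reticulum, and GPAM, a glycerol-3-phosphate acyltransferase, had H3K4me3 only, and GPAM had no H3K27ac peak in its span or within 50 kb. CD36, a fatty acid receptor, had neither mark at any of its 6 listed starts and no peak in its span or within 50 kb of it. With scores of at least 100 in both lists, 16 of the 24 had both marks, against 32 of the 38 members and 50.7% of all genes.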

How the data were processed

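Chromatin immunoprecipitation and sequencing of H3K27ac and H3K4me3 in HCC1599 cells was analysed from the peak list of each mark; the input was not analysed here. The submitters' processing notes name MACS 1.4, hg38 and Bowtie2, the last with its version not given in the sources used here. The authors deposited each peak's position and a score of no stated unit, which served for description, ranking and filtering inside its own list alone. Coordinates count from 1.

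Gene spans and promoter windows came from RefSeq tables of GRCh38.p14, without exons. A start was any listed start, and both span ends stood in for 5 members and for other genes with none listed. The widest peak within 1 kb gave a gene's width and score. The members and lists were chosen with earlier results of these data known. Every member is accounted for. Full values are given for the 3 widest start peaks of each mark and the 3 highest distal counts per group, members lacking a mark, and others chosen after their values were seen. Percentiles rank a gene among all protein-coding genes with such a peak. Medians are compared across settings by exact binomial 95% order-statistic intervals, or by the range of the values in the regulators and in uptake and efflux, which are too few for such an interval.

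Alternatives were a minimum score of 100, lists cut to equal length, windows of 500 bp and 2.5 kb, span ends, coverage of 50% of a window or peak, merging of peaks under 500 bp apart, flanks of 25 and 100 kb, and a distal distance of 5 kb. Excluding peaks near listed starts was added after seeing the data. Python 3.11.15, numpy 2.4.6 and pandas 2.3.3 were used. The scripts were tested on simulated data, and counts of marked genes were checked against bedtools 2.31.1.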

Additional observations from a re-analysis of the deposited data

How the results depend on the processing

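No paired analysis was possible because each mark has 1 library and no test was made. Of 100 recomputed values under 12 settings, 86 stayed within 1.5 times the count given, within the binomial interval of the median or share, or, in the regulators and in uptake and efflux, within the range of the members. The number of members with both marks was 32 under 6 of the 7 alternatives at the start and 30 with span ends. The other 14 values were all medians of distal H3K27ac peaks. Over all members the median of 4 became 2 with scores of at least 100, 2 with equal list lengths, 2.5 with flanks of 25 kb, 6.5 with flanks of 100 kb and 2.5 with a distal distance of 5 kb; over all genes the median of 2 became 0, 1, 1, 4 and 2 in the same order. Regulators, with a median of 8, had 2, 3 and 14 under a score of at least 100, equal lengths and 100 kb, and 7 with peaks merged. The sterol pathway median of 2 became 6 with 100 kb. The fatty acid median of 6 became 2 with scores of at least 100 and with equal lengths, and the uptake and efflux median of 2 became 1 under both. Excluding peaks near listed starts left medians of 4, 8, 2, 5 and 2 for all members, regulators, sterol, fatty acid and uptake genes. The numbers of bases searched or peaks kept change by construction in these settings. Peak lists carry no read depth, so that a start without a peak is one where none was called, and a score at 3100 cannot be ranked.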

Other observations

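Some member regions were dense in peaks at the starts of neighbouring genes. PMVK had the highest H3K27ac cover of any member, 34977 bp per 100 kb, against a median of 5179 bp over all protein-coding genes. Within its flanks lay H3K27ac peaks of 8725 bp (score 3100) at CKS1B and SHC1 and of 9194 bp (score 1895) at FLAD1. PMVK itself had 3 distal peaks, or 2 without those within 2.5 kb of a listed start. TM7SF2 followed with 32403 bp per 100 kb in a region whose own gene spans 4359 bp, and a peak of 2012 bp (score 3100) that reached across the upper end of its span lay within 1 kb of a ZNHIT2 start. At the other extreme, ACSL4 had 962 bp of H3K27ac per 100 kb, and HSD17B7 had 1607.

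Inside FADS2 a strong site of both marks lay away from the start it shares with FADS1. It had 2765 bp of H3K27ac (score 1457) on 4632 bp of H3K4me3 (score 3100), centred 12 and 12.6 kb into the gene, and between it and the start stood an H3K27ac peak of 3614 bp (score 1246) with weak H3K4me3 on it (1481 bp, score 71.8). No listed start of a protein-coding gene lay within 1 kb of these peaks.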
